A study of Mus musculus with 6 samples.

Results

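The sodium channel beta subunits described here are the genes Scn2b, Scn3b and Scn4b, chosen by gene symbol from the deposited count table. They are 3 of the 22869 gene symbols in that table, and each gene is represented by its most highly counted transcript row. RNA was sequenced from mouse embryos at E14.5, mid-gestation. The Ret-positive RA mechanoreceptors (replicates 2, 8 and 9, 3 libraries) were taken from the dorsal root ganglia of Ret-CreERT2; Rosa26-Tdtomato embryos. Their mothers received 1.5 or 2 mg of 4-hydroxytamoxifen by gavage, and the labelled cells were isolated by fluorescence-activated sorting. The dorsal column midline cells (3 libraries, replicates 2, 3 and 5), which derive from the roof plate, were cut by laser capture from frozen, hematoxylin-stained spinal cords of wild-type embryos. Both groups were of mixed strain, and the labels do not say whether replicates were separate embryos or litters. P-values therefore measure the spread between these libraries, which may be technical. Tissue, genotype, tamoxifen and isolation method all changed with cell type and cannot be told apart from it. CreERT2 labelling marks cells that expressed Ret around the time of the drug, and a captured region can hold cells of several types.

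A voltage-gated sodium channel consists of a pore-forming alpha subunit with one or more beta subunits. Beta subunits are small proteins that cross the membrane once and carry an extracellular immunoglobulin-like domain. They shift the voltage dependence and kinetics of the channel, raise its density at the surface and act as cell adhesion molecules. The products of Scn2b and Scn4b are bound to the alpha subunit by a disulfide bond, and that of Scn3b is bound non-covalently. In sensory neurons these channels start and carry the action potential along the axon.

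Scn2b and Scn4b are direct neighbours on chromosome 9 in the RefSeq annotation of GRCm38.p6 and are transcribed in the same direction. Their promoter windows are shown because this adjacent pair differed widely in level, as described further on. Each window runs from 250 bases before to 50 bases after the transcription start, on the + strand. Capitals mark ATTA and its reverse complement TAAT, the core recognised by many homeodomain factors; both strands were searched.
Scn2b promoter, chr9:45117626-45117925: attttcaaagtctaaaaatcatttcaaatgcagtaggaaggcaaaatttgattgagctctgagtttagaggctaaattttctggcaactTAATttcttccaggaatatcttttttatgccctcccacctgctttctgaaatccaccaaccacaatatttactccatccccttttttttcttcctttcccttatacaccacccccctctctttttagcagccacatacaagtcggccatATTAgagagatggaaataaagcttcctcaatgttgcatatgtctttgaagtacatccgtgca
Scn4b promoter, chr9:45138374-45138673: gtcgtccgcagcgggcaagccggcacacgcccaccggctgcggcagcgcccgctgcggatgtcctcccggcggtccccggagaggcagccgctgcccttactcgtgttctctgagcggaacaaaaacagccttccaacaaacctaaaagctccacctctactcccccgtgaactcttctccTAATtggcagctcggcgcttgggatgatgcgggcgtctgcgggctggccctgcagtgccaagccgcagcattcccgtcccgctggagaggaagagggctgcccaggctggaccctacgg
The Scn2b window held 2 CG dinucleotides and 38.3% G or C, and the Scn4b window held 26 CG dinucleotides and 66.3% G or C. The median over 32851 promoter windows of 300 bases was 7 CG dinucleotides, with 14.1% of windows below the Scn2b count and 83.1% below the Scn4b count. ATTA on either strand was found at 2 places for Scn2b and 1 for Scn4b, and 58.0% of all windows hold it. TATAAA on either strand was in neither window and is in 13.6% of all windows. These are letters in a window and were not tied to binding of any factor.

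Total counts over transcript rows were 12031898 to 13801474 in mechanoreceptor and 5599811 to 8081153 in midline libraries. Levels are given as CPM (counts per 1000000, scaled by the TMM method), and 1 count was worth 0.115 to 0.128 CPM in mechanoreceptor and 0.158 to 0.223 CPM in midline libraries. Ret stood at 988, 1036 and 788 CPM in mechanoreceptor libraries 2, 8 and 9, against 13.6, 41.9 and 20.8 CPM in midline libraries 2, 3 and 5. Mechanoreceptors had higher levels of 8 of 11 sensory neuron markers, and the midline had higher levels of 12 of 12 tested roof plate markers. P2rx3, a receptor best known from nociceptors, stood at 1022, 991 and 658 CPM in mechanoreceptor libraries 2, 8 and 9, against 6.26, 2.23 and 2.37 CPM in midline libraries 2, 3 and 5. The midline libraries differed in what else they held. Summed over each marker list, skeletal muscle genes reached 37064, 355 and 3522 CPM in midline libraries 2, 3 and 5, against 16.0 to 35.0 CPM in mechanoreceptors. Dorsal horn neuron genes summed to 158, 1176 and 384 CPM in the same midline libraries, against 2.04 to 4.61 CPM in mechanoreceptors, where 5 of 10 such genes were at 0 in each library. Roof plate genes summed to 410, 1170 and 1800 CPM in the midline libraries, against 10.3 to 18.7 CPM in mechanoreceptors.

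Scn2b and Scn3b were higher in mechanoreceptors, by 8.66-fold and 2.86-fold, and Scn4b was at a few counts in every library of both groups. Of 15314 genes tested over the whole table, 37.8% were called at an adjusted p under 0.05, comprising 18.8% in which mechanoreceptors were higher and 18.9% in which the midline was. With upper-quartile scaling 36.9% of the calls were higher in mechanoreceptors, against 49.9% with TMM. Of the 3 beta subunit genes, 2 passed the filter on low counts and both were called in that direction. Groups that did not overlap, with every mechanoreceptor library above every midline library, were found in 27.3% of genes tested (54.8% in either direction), and among them were both Scn2b and Scn3b. In bulk samples, fewer cells of a type and less RNA per cell cannot be told apart.

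Scn2b encodes the beta subunit that is disulfide-linked to the alpha subunit in axons. It had 651, 717 and 488 counts in mechanoreceptor libraries 2, 8 and 9, or 75.1, 85.2 and 62.3 CPM. In midline libraries 2, 3 and 5 it had 53, 47 and 43 counts, or 8.50, 10.5 and 6.79 CPM. The lowest mechanoreceptor library was 5.94 times the highest midline library, so the groups were well apart. The mean was 74.2 ± 11.5 CPM in mechanoreceptors and 8.59 ± 1.85 CPM in the midline (SD, n = 3 each). The log2 fold change, mechanoreceptor minus midline, was 3.11 (SE 0.26, edgeR quasi-likelihood adjusted p = 0.000314). A larger log2 fold change was fitted for 1.78% of the genes tested, and the median of the 2886 genes called higher in mechanoreceptors was 1.38. In the authors' deposited table, whose sign is midline minus mechanoreceptor, Scn2b had a log2 fold change of -3.39 and a false discovery rate of 5.4e-16.

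Scn3b encodes the non-covalently bound beta subunit that is abundant in embryonic neurons. It had 3516, 3532 and 2686 counts in mechanoreceptor libraries 2, 8 and 9, or 406, 419.6 and 343 CPM. In midline libraries 2, 3 and 5 it had 1072, 766 and 420 counts, or 172, 171 and 66.3 CPM. Midline library 5 stood well below both other midline libraries, and the lowest mechanoreceptor library was 1.99 times the highest midline library. The mean was 389 ± 40.8 CPM in mechanoreceptors and 136 ± 60.7 CPM in the midline (SD, n = 3 each). The log2 fold change was 1.51 (SE 0.36, edgeR quasi-likelihood adjusted p = 0.0127). Relative to its mean, the SD of Scn3b was 10.5% in mechanoreceptors and 44.5% in the midline, and that of Scn2b was 15.4% in mechanoreceptors and 21.5% in the midline. In the authors' deposited table Scn3b had a log2 fold change of -1.82, midline minus mechanoreceptor. Scn3b had 3 transcript rows. In no library did their counts differ by more than 11, and in none by more than 0.783%.

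Scn4b encodes the disulfide-linked beta subunit known for resurgent sodium current in fast-firing neurons. It had 8, 5 and 3 counts in mechanoreceptor libraries 2, 8 and 9, or 0.923, 0.594 and 0.383 CPM. In midline libraries 2, 3 and 5 it had 7, 2 and 8 counts, or 1.123, 0.446 and 1.26 CPM. The groups overlapped, and the exact Poisson 95% interval was 0.398 to 1.82 CPM for the highest mechanoreceptor library and 0.545 to 2.49 CPM for the highest midline library. Over each group 16 counts stood against 17, a ratio of 0.644 per library size (exact 95% interval 0.305 to 1.36, counting error only). Scn4b did not pass the filter on low counts. With no count filter its log2 fold change was -0.49 (SE 0.93, edgeR quasi-likelihood adjusted p = 0.722), so a difference was not detectable at this depth. In the authors' deposited table Scn4b had a log2 fold change of 0.35, midline minus mechanoreceptor, and a false discovery rate of 0.906. Its deposited log2 values were 3.55, 2.80 and 2.33 in mechanoreceptor libraries 2, 8 and 9, against 2.33, 1.19 and 2.73 in midline libraries 2, 3 and 5. The highest of these were mechanoreceptor 2 and 8, so no direction is read for Scn4b.

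**Figure D1:**
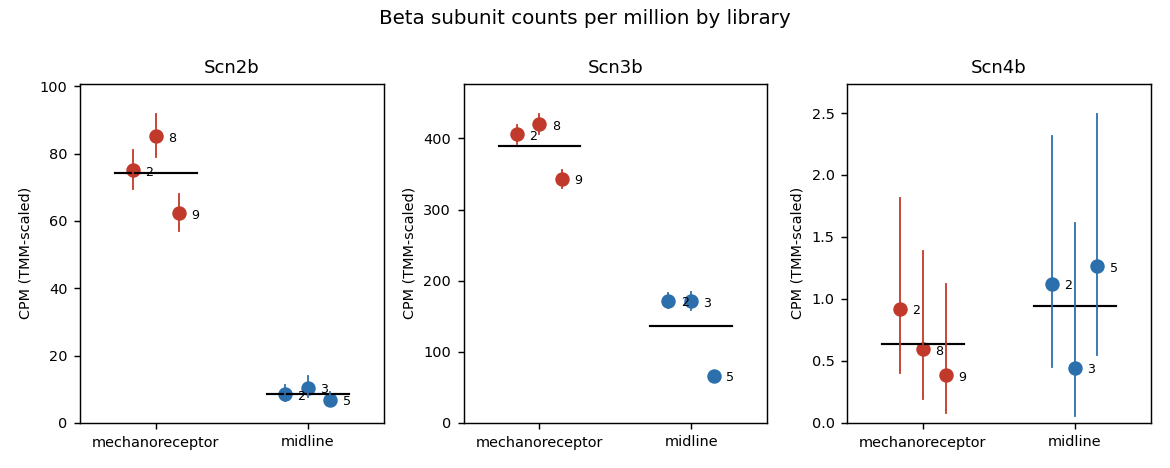
TMM-scaled CPM (linear axes from 0) of Scn2b, Scn3b and Scn4b in the 3 mechanoreceptor and 3 midline libraries, numbered by replicate. Thin bars are exact Poisson 95% intervals and horizontal lines are group means; for Scn2b and Scn3b all mechanoreceptor libraries lie above all midline libraries, and for Scn4b, at 0.383 to 1.26 CPM, the groups overlap.

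In these libraries the mix of the members also differed between the groups. Scn3b made up 84.2%, 83.0% and 84.5% of the counts of the 3 genes in mechanoreceptor libraries 2, 8 and 9, against 94.7%, 94.0% and 89.2% in midline libraries 2, 3 and 5. Scn2b made up 15.6%, 16.9% and 15.4% in those mechanoreceptor libraries, against 4.68%, 5.77% and 9.13% in the midline libraries. The lowest bound of the Scn2b intervals (Wilson, 95%) was 14.1% in mechanoreceptors, and the highest was 12.1% in the midline. Those intervals cover counting error only, not the spread between libraries. A ratio of counts within a library does not depend on its depth or scaling, so it was used to test whether the genes differed in their group difference. The log2 ratio of Scn2b to Scn3b (0.5 added to each count) was -2.40 ± 0.09 in mechanoreceptors and -3.87 ± 0.54 in the midline (SD, n = 3 each), a difference of 1.47, or 2.78-fold. All 3 mechanoreceptor ratios lay above all midline ratios. The log2 ratio of Scn2b to Scn4b was 6.80 ± 0.47 in mechanoreceptors and 3.15 ± 0.98 in the midline. That of Scn4b to Scn3b was -9.20 ± 0.46 in mechanoreceptors and -7.02 ± 1.32 in the midline, and the groups were apart for both pairs. Each of these 3 comparisons gave a two-sided exact permutation p = 0.1 (0.1 after Benjamini-Hochberg adjustment over the 3), the smallest that 3 against 3 libraries allow. The ratios with Scn4b rest on 2 to 8 counts per library.

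**Figure D2:**
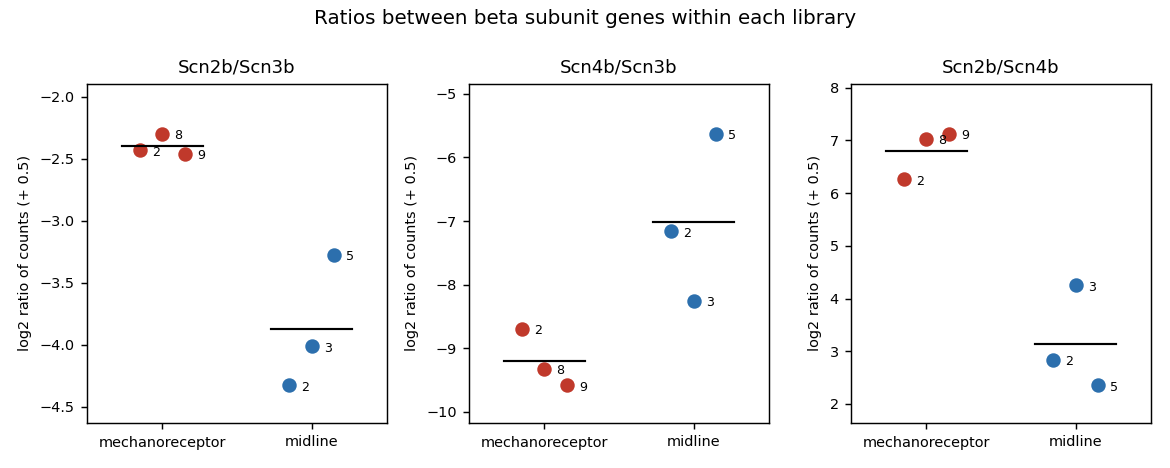
Log2 ratio of counts between each pair of beta subunit genes within a library, with 0.5 added to each count, in mechanoreceptor and midline libraries numbered by replicate. Lines are group means; the Scn2b/Scn3b ratio averaged -2.40 in mechanoreceptors and -3.87 in the midline, without overlap.

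The summed level of neuronal genes was lower in the midline samples than in the sorted cells, so each member was also set against neuronal genes. The 13 pan-neuronal genes matched in the table, such as Tubb3, Stmn2 and Dcx, summed to 16270, 17028 and 16668 CPM in mechanoreceptor libraries 2, 8 and 9, against 1677, 6651 and 2099 CPM in midline libraries 2, 3 and 5. Scn3b did not follow that order within the midline, since library 2 had the lowest neuronal sum and, with library 3, the highest Scn3b level. Per 10000 counts of those genes, Scn2b had 46.2, 50.1 and 37.4 counts in the mechanoreceptor libraries, against 51.2, 15.9 and 32.7 in the midline libraries. These values overlapped, and the log2 difference, mechanoreceptor minus midline, was 0.57 (two-sided exact permutation p = 0.4, and 0.4 adjusted over the 3 members). The overlap was not kept under every setting. With all transcript rows of a gene summed the difference was 0.98, and without midline 2 it was 0.95. Each had an exact permutation p = 0.1, with all mechanoreceptor values above all midline values. Summed rows can count the same read more than once, so genes with several rows weigh more in that setting. Scn3b had 249, 246 and 206 counts per 10000 in the mechanoreceptor libraries, against 1026, 257 and 316 in the midline libraries. All midline values of Scn3b were the higher ones on this scale, midline library 3 by a small margin. The log2 difference was -0.91 (two-sided exact permutation p = 0.1, adjusted 0.15), or -0.29 without midline 2. Without mechanoreceptor 2, 8 or 9 the Scn3b difference was -0.96, -0.95 and -0.82. The groups stayed apart, but the exact permutation p rose to 0.4, 0.4 and 0.5. The separation of Scn3b was lost, and the groups overlapped, with transcript rows summed (-0.49, exact permutation p = 0.8) and without Stmn2 (-0.76, exact permutation p = 0.3). Stmn2 was taken as the most abundant gene of the list. In midline libraries 2, 3 and 5 Dcx was higher, at 623, 2668 and 738 CPM, against 256, 895 and 287 CPM for Stmn2. Leaving out Dcx was not tested. Scn4b had 0.603, 0.384 and 0.268 counts per 10000 in the mechanoreceptor libraries, against 7.17, 0.839 and 6.39 in the midline libraries. Its log2 difference was -3.09 (two-sided exact permutation p = 0.1, adjusted 0.15), with midline library 3 apart by a small margin. The Scn4b counts themselves were 8, 5 and 3 against 7, 2 and 8, so most of that difference lies in the neuronal counts of the divisor. The part of other cell types in these values was not tested. The 13 genes are expressed by many neurons and their own levels per neuron need not match between the groups.

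**Figure D3:**
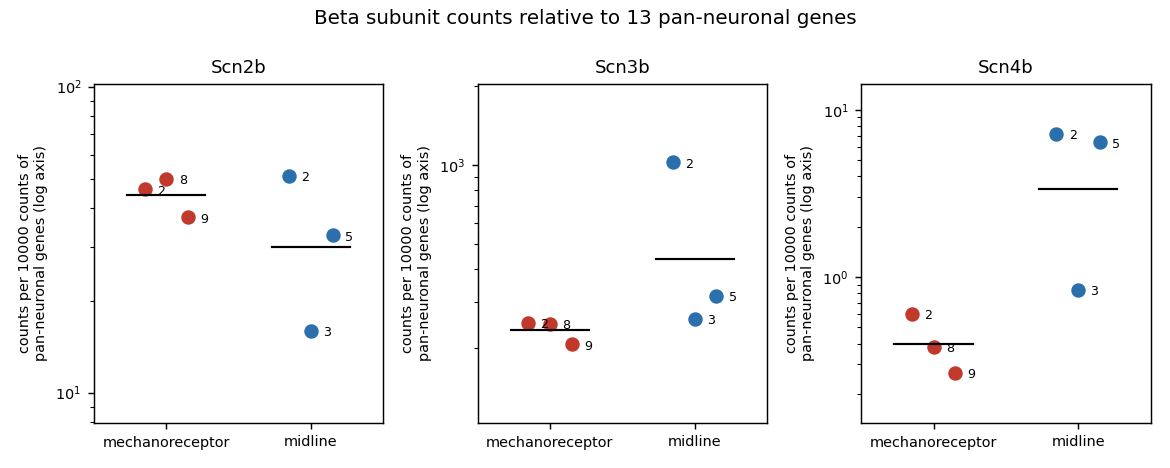
Counts of each beta subunit gene per 10000 counts of 13 pan-neuronal genes (log axis) in mechanoreceptor and midline libraries numbered by replicate. Lines are means on the log scale; Scn2b values overlap between the groups, while the mechanoreceptor values of Scn3b (206 to 249) lie below its midline values (257 to 1026).

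Levels of different genes were compared per length, using transcript lengths of 3958 bases for Scn2b, 4150 for Scn3b and 4982 for Scn4b from GENCODE M21 (GRCm38), since the build of the counts was mm9. In mechanoreceptors Scn3b stood at 93.8 ± 9.82, Scn2b at 18.7 ± 2.89 and Scn4b at 0.127 ± 0.0546 CPM per kb of transcript (SD, n = 3). In the midline the order was the same, with Scn3b at 32.9 ± 14.6, Scn2b at 2.17 ± 0.467 and Scn4b at 0.189 ± 0.0877 CPM per kb. No 2 of the 3 genes overlapped within either group. Among the pore-forming alpha subunits in mechanoreceptors, Scn7a was higher than Scn3b at 137 ± 18.6 CPM per kb. Scn2b was within the spread of the alpha subunits Scn3a (20.4 ± 3.87) and Scn2a1 (16.1 ± 3.90). In the midline Scn3b was above Scn3a (16.3 ± 8.12), the highest alpha subunit there, in each of 3 libraries. The margin was small in midline library 5, at 16.0 against 14.8 CPM per kb, and the ranges of both genes overlapped between libraries. Scn9a, at 916 ± 234 CPM in mechanoreceptors, had no matched length and has no value on this scale. Whether it stood above Scn3b per length is therefore not known.

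**Figure D4:**
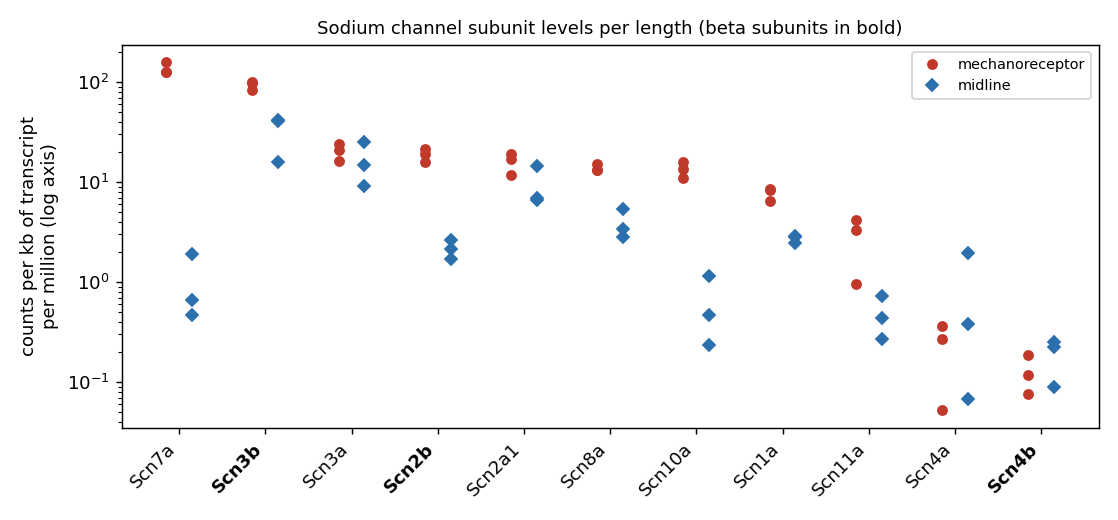
CPM per kb (log axis) of beta subunits (bold) and alpha subunits with a matched length, ordered by the mechanoreceptor mean, with mechanoreceptor libraries as circles and midline libraries as diamonds. Among these genes Scn3b is second to Scn7a in mechanoreceptors and highest in the midline, and Scn4b is lowest by mean in both groups. Scn9a, with no matched length, is not placed.

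The alpha subunit genes, the partners of the beta subunits in the channel, moved mostly the same way. Of 9 examined, 6 passed with the higher level in mechanoreceptors and 0 with the higher level in the midline. Over all genes tested these shares were 18.8% and 18.9%. The median log2 fold change was 1.85, beside -0.05 over all genes tested. Scn7a (1008 ± 136 CPM in mechanoreceptors and 7.50 ± 5.77 CPM in the midline), an atypical channel of glia and sensory neurons, had a log2 fold change of 7.06. Schwann and satellite glia genes also had higher levels in mechanoreceptors for 3 of 7 tested, and none of the 7 was called higher in the midline. That list summed to 86.6, 143 and 94.0 CPM in mechanoreceptor libraries 2, 8 and 9, against 71.7, 29.4 and 35.7 CPM in midline libraries 2, 3 and 5, with no gene at 0. Its part in the Scn7a difference was not tested. Scn9a, the peripheral channel that amplifies small depolarisations, had 916 ± 234 CPM in mechanoreceptors and 19.7 ± 7.16 CPM in the midline (log2 fold change 5.54). Scn10a, a channel typical of nociceptors, had 90.7 ± 16.1 CPM in mechanoreceptors and 4.13 ± 3.18 CPM in the midline (log2 fold change 4.44). Scn8a, the channel of mature nodes (log2 fold change 1.85), and Scn1a (1.51) were higher as well. Scn11a (2.57) was called, but lost the call without mechanoreceptor 8 or 9 (adjusted p = 0.0584 and 0.0507) and with limma-voom (0.0572). The stricter count filter, at least 50 counts in 3 libraries, removed Scn11a.

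The other 3 alpha subunit genes did not pass the test. Scn3a, the main embryonic channel of the brain, had 175 ± 33.1 CPM in mechanoreceptors and 139 ± 69.4 CPM in the midline (log2 fold change 0.33, SE 0.35, adjusted p = 0.491). Scn2a1 had a log2 fold change of 0.79 (SE 0.34, adjusted p = 0.104) and passed without midline 3 (adjusted p = 0.00589). Scn4a, the skeletal muscle channel, had 12.99 CPM in midline library 2, the library with the highest muscle sum, and 0.446 and 2.53 CPM in midline libraries 3 and 5. Its log2 fold change was -1.82 (adjusted p = 0.222), or 0.02 without midline 2. Scn3b, at 1.51, thus had a fold close to that of Scn1a, and Scn2b lay between Scn11a and Scn10a. These differences between genes were not tested.

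**Figure D5:**
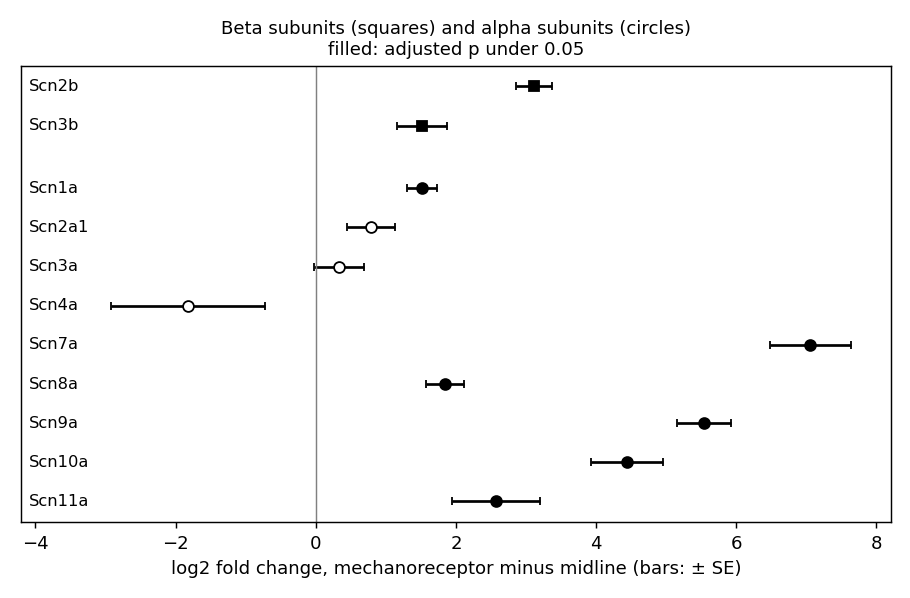
Log2 fold change, mechanoreceptor minus midline, with its SE for the 2 beta subunits tested (squares) and 9 alpha subunits (circles), filled where the adjusted p was under 0.05. Both beta subunits and 6 alpha subunits are filled, all to the right of 0.

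Proteins that bind or anchor the channel complex were examined next. Of 12 tested genes of the axon initial segment, the node and their ligands, 7 were called higher in mechanoreceptors and 2 in the midline. Over all genes tested these shares were 18.8% and 18.9%. The median log2 fold change of the list was 1.43. Ank2, an ankyrin of axons, had 989 ± 78.6 CPM in mechanoreceptors and 256 ± 23.1 CPM in the midline (log2 fold change 1.95). L1cam (2.90) and Cntn1 (1.70), both axonal adhesion molecules, were higher too. Nrcam (1.30, adjusted p = 0.0285), an adhesion molecule of the initial segment, lost its call without mechanoreceptor 2, 8 or 9 or midline 5 (adjusted p = 0.056 to 0.0874), with upper-quartile scaling (0.0537) and on the deposited log2 values (0.0509). Ptprz1 and Tnc, a receptor phosphatase and an extracellular matrix protein reported to bind beta subunits, were the 2 genes higher in the midline. Ptprz1 had 148 ± 2.43 CPM in mechanoreceptors and 499 ± 283 CPM in the midline, and Tnc had 27.3 ± 11.3 CPM in mechanoreceptors and 121 ± 55.9 CPM in the midline. Both also stand in the radial glia and astrocyte marker list, whose mechanoreceptor sums were 690 to 907 CPM and whose midline sums were 2994 to 7908 CPM. Their part in the result was not tested.

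Ank3, ankyrin-G of the initial segment, had 439 ± 33.3 CPM in mechanoreceptors and 376 ± 244 CPM in the midline and did not pass (log2 fold change 0.22, adjusted p = 0.687), except without midline 3 (0.91, adjusted p = 0.00691). Cntnap2 (1.34, adjusted p = 0.0682) missed the threshold and passed under 4 alternatives: leaving out midline 3 (adjusted p = 0.00372), limma-voom (0.0243), DESeq2 (0.0291) and testing all genes without a filter (0.0414). The 4 intracellular fibroblast growth factor homologues bind the tail of the alpha subunit. Of these, 3 were called with more in mechanoreceptors and 1 with more in the midline, beside 18.8% and 18.9% of all genes tested. Fgf13 had 607 ± 41.7 CPM in mechanoreceptors and 57.2 ± 32.2 CPM in the midline (log2 fold change 3.41, SE 0.39, adjusted p = 0.00091). Fgf12 (2.26) and Fgf11 (1.95) were higher in mechanoreceptors, and Fgf11 lost its call without mechanoreceptor 2 or 8 or midline 2 or 5 (adjusted p = 0.0644 to 0.107). The stricter count filter removed Fgf11. Fgf14 was the one higher in the midline, with 2.75 ± 1.82 CPM in mechanoreceptors and 27.2 ± 12.6 CPM in the midline (log2 fold change -3.30).

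Beta subunits are cut by a beta-secretase and an alpha-secretase and then by gamma-secretase. Of 9 genes of these enzymes, 7 did not pass the test, and the median log2 fold change was 0.13. Over all genes tested 37.8% were called, and with so few genes nothing is read from that count. Bace1, the beta-secretase that cuts beta subunits, had 95.5 ± 25.4 CPM in mechanoreceptors and 67.2 ± 5.63 CPM in the midline (log2 fold change 0.51, SE 0.24, adjusted p = 0.128), and passed without mechanoreceptor 9 (0.73, adjusted p = 0.0408). Adam10, an alpha-secretase, had 107 ± 17.0 CPM in mechanoreceptors and 109 ± 19.7 CPM in the midline (log2 fold change -0.03, SE 0.21). Psen2, a catalytic gene of gamma-secretase, was called higher in mechanoreceptors (1.52, adjusted p = 0.0375) but not without mechanoreceptor 2, 8 or 9 or midline 5 (adjusted p = 0.0741 to 0.104) or with upper-quartile scaling (0.0620). Bace2 was higher in the midline, with 1.44 ± 0.0872 CPM in mechanoreceptors and 11.9 ± 4.23 CPM in the midline (log2 fold change -3.03), and the stricter count filter removed it.

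Among genes with a related immunoglobulin-like fold, 2 of 5 tested were called higher in the midline and 3 did not pass. Their median log2 fold change was -0.86. Of all genes tested 18.9% were called higher in the midline, and nothing is read from a count over so few genes. Jam2 (-3.54) and Esam (-2.46), junction proteins of endothelium, were higher in the midline. In midline libraries 2, 3 and 5 Jam2 had 85.0, 125 and 239 CPM, and Esam had 19.2, 25.7 and 32.4 CPM. The endothelial and pericyte list summed to 649, 584 and 606 CPM there, against 78.8 to 166 CPM in mechanoreceptors. In the same midline libraries roof plate genes summed to 410, 1170 and 1800 CPM. Radial glia and astrocyte genes summed to 2994, 5732 and 7908 CPM. The part of these lists was not tested. Mpzl1 (-0.14) and Cxadr (-0.59) did not pass.

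On chromosome 9 the 4 nearest protein-coding genes on each side of each member, 16 in all besides the members, included 7 that were tested. Among these 7 genes, 2 were called with more in mechanoreceptors, beside 18.8% of all genes tested, and with so few genes nothing is read from that count. They are neighbours of Scn3b, Gramd1b (log2 fold change 1.71, adjusted p = 0.00287), which encodes a sterol transporter, and Hspa8 (1.36, adjusted p = 0.00225), which encodes a constitutive heat shock protein. Around the Scn2b and Scn4b pair none of the 3 neighbours tested was called (adjusted p = 0.643 to 0.855). Mpzl2 and Mpzl3 did not pass the count filter, which asks for the minimum in several libraries; Mpzl2 had 104 counts in midline library 2 and at most 10 in any other library.

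The genes whose log2 CPM over the 6 libraries was most like that of each member are given as a description, with no test, since the 2 groups alone set much of such a correlation. For Scn2b they were 1810012P15Rik, Taf13, Atp6v0a1, Acap3 and Ccdc116 (Pearson r = 0.998 to 0.9996), and 1206 genes had r above 0.95. For Scn3b they were Mir1903, Pim3, Timm9, Bahd1 and 2310057M21Rik (r = 0.992 to 0.996), and 213 genes had r above 0.95. Mir1903 was near the floor in the midline, with a mean of 0.745 CPM, against 3.91 CPM in mechanoreceptors. For Scn4b, where the counts are near the floor, they were Furin, Gtf3c2, C230096C10Rik, Hinfp and Gpr146 (r = 0.976 to 0.986), and 24 genes were above 0.95. The number of genes that resembled Scn2b this closely was thus larger than for Scn3b. Scn3b varied more between midline libraries and had the smaller log2 fold change (1.51 against 3.11). The part of either in these numbers was not tested.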

How the data were processed

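The authors deposited whole-number counts for each RefSeq transcript and sample. Build mm9 and the tool edgeR (no version) are named per the submitters' processing notes. Aligner, counting tool and strandedness are not given in the sources used here, so overlapping or antisense transcripts could not be told apart. The same deposited table holds log2 expression values, whose maximum is equal in all samples, and the authors' log2 fold change with a false discovery rate p-value. The members and gene lists were chosen with earlier results of these data known. A few genes of the channel family and of the lists are not reported here.

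For the test (R 4.3.3, edgeR 4.0.16), filterByExpr (minimum count 10, minimum total 15) kept 15314 genes and TMM scaled the libraries. A quasi-likelihood F test compared 3 mechanoreceptor with 3 midline libraries on 4 residual degrees of freedom, with Benjamini-Hochberg adjustment over all genes tested and a threshold of 0.05. The SE was taken from the log2 fold change and its F. Wilson and Poisson intervals cover counting error only. Ratios were tested by exact permutation over samples with 0.5 added to counts. On simulated counts of 14880 genes the test recovered 93.9% of 98 genes changed by 2 and 100% of 98 changed by 3 on the log2 scale. It made 7 false calls. The simulation gave all genes the same dispersion and changed few of them, so these rates are not the power for the deposited counts.

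Genes named are the members, Ret, the alpha subunits examined and, by mean CPM in each other list, up to 4 called genes in the majority direction, 2 in the other and 2 not called. The 5 most similar genes per member were ranked by Pearson correlation of log2 CPM (prior count 2). P2rx3 and the neighbouring genes were singled out after their values were seen. Transcript lengths came from GENCODE M21 through RefSeq identifiers, and promoters of 2 of the 3 members from RefSeq (GRCm38.p6). Alternatives were DESeq2 1.42.0, limma-voom (limma 3.58.1), limma on the deposited log2 values, upper-quartile scaling, no count filter, at least 50 counts in 3 libraries, summed transcript rows, the row marked best by the authors, other pseudocounts, 2 other summaries of the neuronal genes and each library left out.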

Additional observations from a re-analysis of the deposited data

How the results depend on the processing

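No paired analysis was made, because the labels give no link between libraries of the groups. A shared replicate number, as for replicate 2, does not define a pair. Scn2b and Scn3b kept their direction and call under each of 14 alternatives, at log2 fold changes of 2.90 to 3.28 for Scn2b (adjusted p at most 0.0035) and 1.22 to 1.74 for Scn3b (adjusted p at most 0.0445), the lowest for Scn3b without midline 5. Scn4b kept a log2 ratio of summed counts from -0.997 to -0.35 with each library left out. Its highest deposited log2 values, however, were those of mechanoreceptor 2 and 8, so its direction depended on the values used. The ratios between members and the values relative to pan-neuronal genes kept their direction in every alternative, and their p could not pass the threshold in this design. With each library left out, the log2 difference relative to pan-neuronal genes lay from 0.11 to 0.95 for Scn2b, -1.29 to -0.29 for Scn3b and -4.097 to -2.55 for Scn4b. Genes called numbered 3755 to 6182 with each library left out, with mechanoreceptors higher in 1893 to 3100 and the midline higher in 1862 to 3082; the lowest numbers were those without mechanoreceptor 8. With upper-quartile scaling 36.9% of calls were higher in mechanoreceptors, against 49.9% with TMM, as the median log2 fold change of all genes moved by -0.21. Of the secretase genes 0 were called higher in mechanoreceptors with upper-quartile scaling and 0 to 1 with each library left out, against 1, and 0 were higher in the midline under the stricter filter, against 1. Genes not called changed sign. Adam10 was at 0.067 with no count filter, 0.06 without mechanoreceptor 8 or mechanoreceptor 9 and 0.17 without midline 5 (-0.14 to 0.17 with each library left out). Ank3 was at -0.068 on the deposited log2 values and -0.0054 without midline 2 (-0.0054 to 0.91). Mpzl1 was at 0.039 without mechanoreceptor 9 (-0.29 to 0.039). Scn4a was at 0.036 on the deposited log2 values and 0.016 without midline 2 (-2.34 to 0.016). The cause was not tested. Depth limits Scn4b, at 2 to 8 counts per library.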
